A study of Homo sapiens with 6 samples.

Results

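DNA replication and S phase genes were followed as a set of 52 named genes, which cover origin licensing, the replicative helicase and its activation, the DNA polymerases, the sliding clamp and its loaders, and the supply of nucleotides and histones. A row was taken where its gene name was one of the 52, and each name was found in 1 row, giving 52 of the 58884 genes listed. RNA-seq was made from HEK293FT cells, a human embryonic kidney line that expresses the large T antigen of SV40 and grows fast. The treated cells were kept for 72 h in supernatant with secreted ISLR (3 libraries, labelled ISLR) and the control cells for the same time in supernatant of an empty vector control (3 libraries, labelled NC). The ISLR protein is secreted and carries leucine-rich repeats. All cells were grown in the same serum-containing medium. The cells are 1 transformed line, and large T is known to bind the retinoblastoma proteins that hold S phase genes in check. Whether the libraries within a group are separate cultures is not in the labels. The p-values therefore set the group difference only against the scatter among these libraries, and that scatter may be technical.

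The labels and the transcript of ISLR went opposite ways. The ISLR transcript had 0, 0.02 and 0 TPM in the libraries labelled ISLR, against 510.3, 555 and 535 TPM in those labelled NC, and all directions in this text depend on these labels and would be opposite with the labels exchanged. TPM (a share of all transcripts, corrected for gene length) keeps no record of depth, which is therefore unknown. Of 9 genes of embryonic kidney and HEK293 epithelium, 1 (PAX8) stayed under 1 TPM in every library, and their summed level was 1347 to 1396 TPM with the ISLR label and 1242 to 1267 TPM with the NC label. Most of that sum was VIM, at 1245 ± 23.1 TPM with the ISLR label and 1128 ± 10.9 TPM with the NC label (mean ± SD, n = 3 each), and the 9 genes moved in different directions. As deposited, WT1, KRT18 and VIM were higher by limma and SIX2 was lower (adjusted p = 0.0278). PAX2 and EPCAM lay below the libraries labelled NC and LHX1 above without passing, and KRT8 and PAX8 overlapped. After median-of-ratios scaling, explained below, VIM was called lower instead (limma adjusted p = 0.00508). SIX2, KRT8, PAX2 and EPCAM were also lower then, and WT1 and KRT18 did not pass. The sum of 3 neuronal-type filament genes known in this line was 215 to 228 TPM with the ISLR label and 179 to 182 TPM with the NC label. Of these, NEFM and NEFL were higher as deposited but did not pass after scaling, and INA overlapped. The part of these marker differences in the results was not tested. The summed levels of 3 endothelial and of 3 blood cell markers did not exceed 0.61 TPM in any library, and CD3E was listed at 0 throughout. The sum of 7 stromal fibroblast markers, most of it COL1A1, was 13.3 to 14.1 TPM with the ISLR label and 11.1 to 16.8 TPM with the NC label, with THY1 listed at 0 and 5 of the 7 under 1 TPM throughout. No batch or date is given in the labels.

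A chromosome is copied once in each S phase. In G1 the origin recognition complex, with CDC6 and CDT1, loads rings of MCM2 to MCM7 onto origins, a step called licensing. In S phase, CDC45 and the GINS complex join each ring to form the active helicase, and polymerases, held by the ring-shaped clamp PCNA, extend the new strands. Many of these genes are known targets of E2F transcription factors, which are released from retinoblastoma proteins as cells enter S phase.

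Replication genes stood higher in the libraries labelled ISLR than in those labelled NC, most clearly DTL, ASF1B, MSH6 and MCM3, whereas the genes of deoxynucleotide supply, the licensing factor CDT1, ORC6 and RFC3 did not pass the test on the deposited scale. The summed level of the 52 genes was 4315 ± 57.2 TPM with the ISLR label and 3367 ± 14.5 TPM with the NC label (mean ± SD, n = 3 each), with no overlap between the groups. With limma on log2(TPM + 1) and a Benjamini-Hochberg adjusted p under 0.05 over all 13869 tested genes, 40 of the 52 genes were higher (76.9%) and none lower. In the same fit 38.5% of all tested genes were higher and 7.38% lower. At an unadjusted p under 0.05 limma gave 42 of the 52 genes as higher and 0 as lower, and after median-of-ratios scaling 5 were lower at the adjusted threshold. The share of all tested genes at the unadjusted threshold was not counted, so the 42 cannot be read beside it. The point estimate was negative for 1 gene, GINS4 (adjusted p = 0.664). A ratio of mean TPM of at least 1.5 was reached by 12 of the 52 genes, near the share of all tested genes (24.1%).

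The typical gene outside the set was also above 0. The median log2 fold, labelled ISLR minus labelled NC, was 0.37 for the 52 replication genes and 0.22 for all tested genes. After median-of-ratios scaling, which sets the typical gene to equal levels in all libraries (median log2 fold -0.01), 22 of the 52 genes were higher (42.3%) and 5 lower (9.62%), against 17.2% higher and 21.3% lower among all tested genes. The 5 lower genes were ORC6, CDT1, RFC3, RRM2 and POLD2. The 22 genes that were higher after scaling were also higher as deposited, and POLD2 was called in opposite directions on the 2 scales. Folds below are on the deposited log2(TPM + 1) scale unless scaling is named, and "relative" means with the median of 0.22 taken off. All 52 genes had at least 4.87 TPM in every library, so none entered the test through 1 group alone. Counts within a role group below are to be read beside the shares of all tested genes. These shares were 38.5% higher and 7.38% lower as deposited, and 17.2% higher and 21.3% lower after scaling. A larger share of cells in S phase and more of these mRNAs per cell cannot be told apart in bulk RNA.

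**Figure D1:**
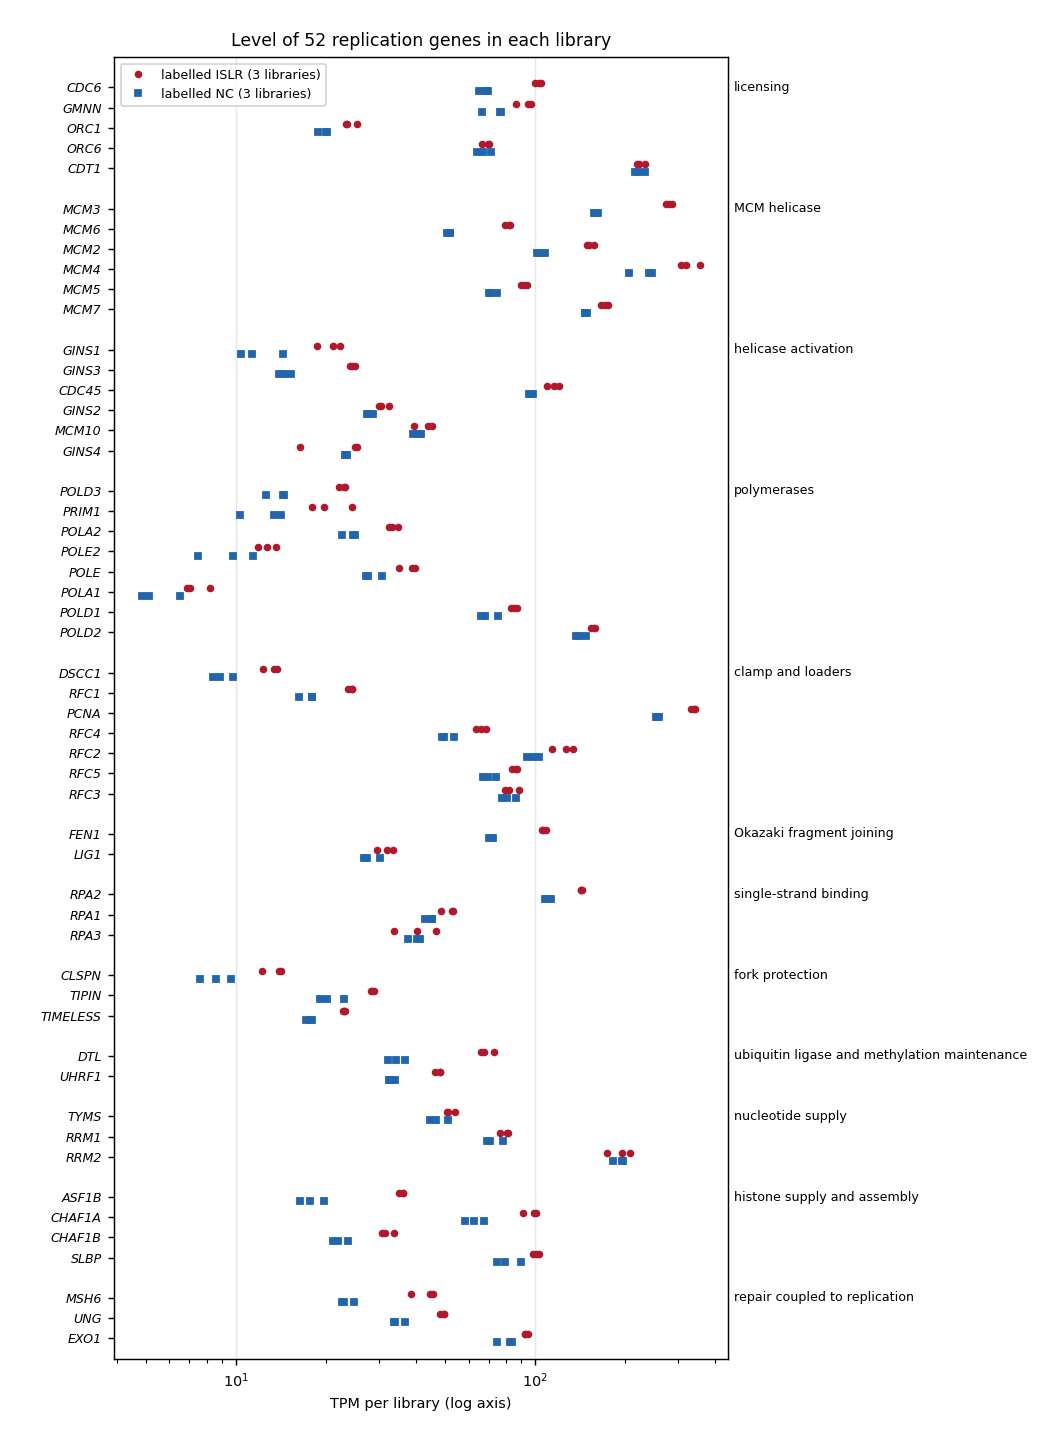
Level of each of the 52 genes in each library, in TPM on a log axis, grouped by role and ordered within a role by log2 fold (red circles, 3 libraries labelled ISLR; blue squares, 3 libraries labelled NC). The groups do not overlap for 42 genes, all with the libraries labelled ISLR above, and overlap for 10.

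The groups did not overlap for 42 genes, each higher in the libraries labelled ISLR. Over all tested genes, all libraries labelled ISLR lay above all labelled NC for 46.3% and below for 10.5%. The mean level ranged widely among the 52 genes. The lowest was POLA1, the catalytic subunit of DNA polymerase alpha, at 8.20, 7.04 and 6.88 TPM in libraries labelled ISLR, against 5.12, 4.87 and 6.52 TPM in those labelled NC. PCNA and MCM4 were the most abundant, and the highest single value was 356 TPM for MCM4 in 1 library labelled ISLR.

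Promoter sequence was not itself used to choose the genes, and examples are printed for genes at both ends of the range of folds. Many of these genes are known E2F targets, so their share of E2F type matches is not independent of the choice. The genes with windows used as background below were not limited to the tested genes. RefSeq windows on GRCh38.p14, from 250 bases before to 50 after an annotated start, were matched by symbol for 45 of the 52 genes. An E2F type motif was searched on both strands as any of TTTGGCGC, TTTCCCGC, TTTCGCGC, TTTGGCGG and TTTCCCGG, with overlapping matches counted as 1 site. It was present in at least 1 window of 28 of the 45 genes (62.2%), against 5.76% of 27305 genes with windows, and in 49.2% of the 61 windows of these genes, against 4.77% of all 35116 windows. CCAAT, on either strand, was present for 30 of the 45 genes (66.7%), against 39.7% of all genes, and TTTGAA for 3 (6.67%), against 18.2%. Of the E2F type sites in windows of these genes, 1 overlapped a CCAAT match. A match of letters is not a bound site.

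The lines below give 100 bases each, 5′ to 3′ on the gene's strand, with E2F type matches in capitals. All lie before the RefSeq start of the window, which is the start meant here. The gene limits in GENCODE, used for positions elsewhere in this text, differ from these starts. By those limits the stretches of DTL and CDT1, and of ASF1B and RRM2 further below, lie wholly inside the gene. Those of MCM3, TYMS and RFC3 lie partly inside, and that of MCM6 lies outside. They are the 3 genes of highest relative fold with such a match before the start (DTL, MCM3 and MCM6) and the 3 of lowest (TYMS, RFC3 and CDT1). The stretches lie on GRCh38.p14 at chr1:212035648-212035747 (plus strand), chr6:52284863-52284962 (minus), chr2:135876509-135876608 (minus), chr18:657553-657652 (plus), chr13:33818048-33818147 (plus) and chr16:88803689-88803788 (plus).
DTL: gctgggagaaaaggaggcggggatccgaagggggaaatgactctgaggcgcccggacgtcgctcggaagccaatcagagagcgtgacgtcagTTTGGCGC
MCM3: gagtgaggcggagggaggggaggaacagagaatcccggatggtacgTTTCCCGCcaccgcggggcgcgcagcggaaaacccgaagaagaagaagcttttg
MCM6: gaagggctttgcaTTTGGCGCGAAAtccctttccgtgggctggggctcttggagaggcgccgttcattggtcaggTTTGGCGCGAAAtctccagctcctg
TYMS: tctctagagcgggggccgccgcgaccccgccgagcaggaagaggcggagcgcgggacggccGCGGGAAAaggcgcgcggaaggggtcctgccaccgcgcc
RFC3: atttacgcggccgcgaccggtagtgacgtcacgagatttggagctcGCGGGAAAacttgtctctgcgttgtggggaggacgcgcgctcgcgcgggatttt
CDT1: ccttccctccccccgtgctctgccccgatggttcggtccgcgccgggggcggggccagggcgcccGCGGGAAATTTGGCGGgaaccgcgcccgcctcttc

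For comparison, 2 genes without an E2F type match are shown with CCAAT matches in capitals (ATTGG where the match is on the other strand), the gene of highest relative fold, ASF1B at chr19:14136634-14136733 (minus strand), and that of lowest, RRM2 at chr2:10122597-10122696 (plus strand).
ASF1B: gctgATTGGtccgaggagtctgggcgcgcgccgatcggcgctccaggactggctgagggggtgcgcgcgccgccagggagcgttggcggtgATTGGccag
RRM2: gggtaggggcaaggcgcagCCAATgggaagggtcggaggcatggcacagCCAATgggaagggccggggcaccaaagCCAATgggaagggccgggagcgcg

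Both kinds of promoter occurred at both ends of the range. The 28 genes with an E2F type match had relative log2 folds of -0.21 to 0.77 (median 0.20), and the 17 matched genes without one had -0.21 to 0.74 (median 0.10). As deposited, 21 of the 28 and 14 of the 17 were higher, against 38.5% of all tested genes. After scaling, 14 of the 28 and 4 of the 17 were higher, against 17.2% of all tested genes. The genes with and without a match were not tested against each other. All 4 matched genes of the MCM ring and all 5 matched genes of helicase activation had a match, whereas 1 of 4 genes of histone supply and assembly and 1 of 3 of nucleotide supply did.

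Among the licensing genes, CDC6 and the inhibitor GMNN were higher in the libraries labelled ISLR, and CDT1 and ORC6 were not. CDC6, which brings the MCM ring to origins, stood at 103, 104 and 99.9 TPM in libraries labelled ISLR, against 68.6, 64.8 and 69.5 TPM in those labelled NC. The groups were far apart, with a log2 fold of 0.59 (95% interval 0.49 to 0.69, relative 0.37, limma adjusted p = 0.000152). CDT1, its partner in loading and the most abundant licensing gene, stood at 219, 233 and 223 TPM in libraries labelled ISLR, against 217, 234 and 221 TPM in those labelled NC. These values interleave, with a log2 fold of 0.01 (95% interval -0.09 to 0.10, adjusted p = 0.902) and -0.26 after scaling (adjusted p = 0.0038). ORC6, a subunit of the origin recognition complex, had 66.4, 69.8 and 70.1 TPM in libraries labelled ISLR, against 71.3, 64.2 and 67.1 TPM in those labelled NC, again with overlap (adjusted p = 0.688 as deposited, 0.0073 after scaling with a lower level). GMNN, which binds and blocks CDT1, was higher (log2 fold 0.33, adjusted p = 0.00827), as was ORC1, the largest subunit of the complex (0.28, adjusted p = 0.01), but neither passed after scaling (adjusted p = 0.443 and 0.757). Of the 5 genes, 3 were higher as deposited (38.5% of all tested genes). After scaling 1 was higher and 2 lower (17.2% and 21.3% of all tested genes).

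Ratios of 2 genes within a library do not depend on scaling between libraries. Trends of the fold with gene length and level, given further below, were not removed from such ratios or from shares. GMNN over CDT1 was 0.434, 0.371 and 0.434 in the libraries labelled ISLR, against 0.356, 0.285 and 0.346 in those labelled NC. DTL over CDT1, a ratio added after the values were seen, was 0.302, 0.291 and 0.328 in the libraries labelled ISLR, against 0.170, 0.138 and 0.155 in those labelled NC. In both the groups do not overlap, and with 3 libraries a group an exact permutation test over libraries cannot go below a p of 0.1.

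All 6 genes of the MCM ring were higher in the libraries labelled ISLR, by unequal amounts (after scaling MCM7 had a log2 fold of -0.05), and their summed level was 1105 ± 36.6 TPM with the ISLR label and 766 ± 25.8 TPM with the NC label (mean ± SD, n = 3 each). MCM3 moved most, at 273, 281 and 288 TPM in libraries labelled ISLR, against 158, 162 and 159 TPM in those labelled NC (log2 fold 0.81, 95% interval 0.74 to 0.88, relative 0.59, limma adjusted p = 2.01e-05). MCM4, the most abundant of the ring, stood at 307, 319 and 356 TPM in libraries labelled ISLR, against 240.0, 246 and 206 TPM in those labelled NC (log2 fold 0.50, adjusted p = 0.00295). Its values were scattered more than those of MCM3 but the groups stayed apart. MCM7 moved least, at 167, 175 and 171 TPM in libraries labelled ISLR, against 147, 149 and 147 TPM in those labelled NC, with a relative log2 fold of -0.0031, that of a typical gene (adjusted p = 0.00195 as deposited, 0.271 after scaling). MCM6 (relative 0.43) and MCM2 (0.32) were also higher on both scales, and MCM5 (0.13) only as deposited.

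The make-up of this pool of mRNA differed. The share of MCM3 in the summed TPM of MCM2 to MCM7 was 25.6, 25.4 and 25.2% in the libraries labelled ISLR, against 20.6, 20.5 and 21.5% in those labelled NC. The share of MCM7 went the other way, at 15.6, 15.8 and 15.0% in the libraries labelled ISLR, against 19.1, 18.9 and 19.8% in those labelled NC. That of MCM5 was 8.39, 8.29 and 8.27% in the libraries labelled ISLR, against 9.11, 9.43 and 9.58% in those labelled NC. For these 3 genes the groups did not overlap, and for MCM2, MCM4 and MCM6 they did.

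**Figure D2:**
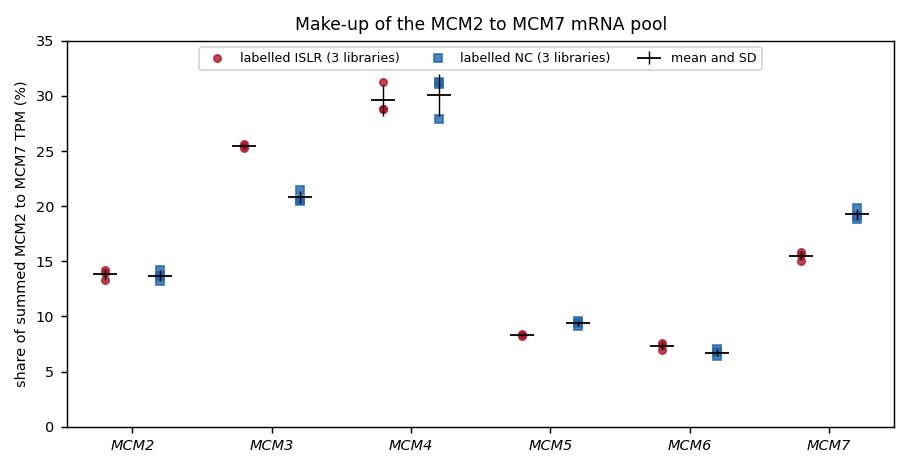
Share of each MCM gene in the summed TPM of MCM2 to MCM7 (percent, y axis starting at 0) per library, with mean and SD of 3 libraries a group (red circles, labelled ISLR; blue squares, labelled NC). MCM3 takes 25.4 ± 0.184% with the ISLR label and 20.9 ± 0.545% with the NC label, and MCM7 takes 15.5 ± 0.416% with the ISLR label and 19.3 ± 0.503% with the NC label (SD, n = 3 each).

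The factors that turn the loaded ring into a moving helicase split. Of 6 genes, 3 were higher as deposited and 2 after scaling, and none was lower on either scale. Among all tested genes 38.5% were higher as deposited and 17.2% after scaling, so these counts do not set the group apart. GINS1, of the GINS complex, stood at 18.7, 21.1 and 22.3 TPM in libraries labelled ISLR, against 11.4, 10.4 and 14.4 TPM in those labelled NC (log2 fold 0.74, 95% interval 0.45 to 1.04, limma adjusted p = 0.00307). GINS3 of the same complex was close behind (log2 fold 0.71, adjusted p = 0.000289). The other two subunits did not pass. GINS2 had 32.5, 30.6 and 30.1 TPM in libraries labelled ISLR, against 28.0, 27.5 and 28.7 TPM in those labelled NC, separate but close (adjusted p = 0.0717). GINS4 had 25.0, 16.5 and 25.4 TPM in libraries labelled ISLR, against 23.5, 23.2 and 23.4 TPM in those labelled NC, where 1 library labelled ISLR lay below all others (log2 fold -0.09, 95% interval -0.46 to 0.28, and 0.10 without that library). CDC45, the most abundant of these genes, had 120.4, 109 and 116 TPM in libraries labelled ISLR, against 95.2, 97.2 and 98.4 TPM in those labelled NC and a relative log2 fold of 0.03 (adjusted p = 0.00408 as deposited, 0.822 after scaling). MCM10, which acts on the assembled helicase, had 39.3, 45.4 and 44.1 TPM in libraries labelled ISLR, against 39.0, 40.6 and 41.7 TPM in those labelled NC, with overlap (adjusted p = 0.335). In the annotation GINS4 and GINS3 share exon bases with antisense genes, of at most 7.4 and 6.14 TPM.

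Of the 8 polymerase and primase genes, 7 were higher as deposited (38.5% of all tested genes). After scaling 2 were higher (POLD3 and POLA2) and 1 lower (POLD2), against 17.2% and 21.3% of all tested genes. POLD3, an accessory subunit of polymerase delta, led with 23.0, 23.1 and 22.2 TPM in libraries labelled ISLR, against 14.4, 14.4 and 12.6 TPM in those labelled NC (log2 fold 0.68, 95% interval 0.51 to 0.85, limma adjusted p = 0.000528). POLD2, another accessory subunit and the most abundant gene of this group, had 153, 158 and 157 TPM in libraries labelled ISLR, against 137, 141 and 148 TPM in those labelled NC. The groups are apart by a narrow gap, and the log2 fold was 0.14 as deposited (adjusted p = 0.0228) and -0.12 after scaling (adjusted p = 0.0298). Without 1 library (labelled ISLR 2 or 3, or labelled NC 1 or 2) the adjusted p of POLD2 as deposited was 0.0659, 0.0669, 0.0641 and 0.0633. POLE2, the accessory subunit of polymerase epsilon, had 12.7, 13.6 and 11.9 TPM in libraries labelled ISLR, against 7.45, 9.82 and 11.4 TPM in those labelled NC (adjusted p = 0.0572, and 0.0229 without labelled NC 3). POLA1 passed narrowly (adjusted p = 0.0464), and it lost the call without labelled ISLR 1, 2 or 3 (0.133, 0.0798 and 0.0726) or labelled NC 1 or 2 (0.119 and 0.128).

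The primase PRIM1 had a log2 fold of 0.67 (adjusted p = 0.00947), with 19.7, 18.0 and 24.5 TPM in libraries labelled ISLR, against 14.2, 10.3 and 13.4 TPM in those labelled NC. It shares 33 exon bases with NACA, which reached 1692 TPM, and whether its reads include some of NACA was not tested. POLA2 (0.46), POLE (0.39) and POLD1 (0.29), the accessory subunit of polymerase alpha and the catalytic subunits of epsilon and delta, were higher as well, and of these POLA2 passed after scaling. POLA2 shares 2012 exon bases, of a listed length of 3544 nt, with AP000944.2 on the same strand, which reached 10.5 TPM, so its values are uncertain. POLD2 over POLD1 was 1.84, 1.86 and 1.80 in the libraries labelled ISLR, against 2.09, 2.06 and 1.96 in those labelled NC, without overlap. The listed lengths of POLD2 and POLD1 are 2158 and 3517 nt. With the length trend removed after scaling their log2 folds were -0.062 and -0.0038, which lie closer together than as deposited. POLD3 over POLD1, added after the values were seen, was 0.276, 0.272 and 0.255 in the libraries labelled ISLR, against 0.219, 0.212 and 0.167 in those labelled NC, also without overlap. POLE2 over POLE was 0.321, 0.351 and 0.339 in the libraries labelled ISLR, against 0.269, 0.361 and 0.371 in those labelled NC, which overlap.

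PCNA, the clamp that tethers polymerases to DNA, and most of its loaders were higher as deposited. PCNA stood at 341, 332 and 341 TPM in libraries labelled ISLR, against 260.4, 255 and 254 TPM in those labelled NC, a gap many times the spread within either group (log2 fold 0.40, 95% interval 0.33 to 0.46, relative 0.18, limma adjusted p = 0.000131). DSCC1, part of an alternative clamp loader that acts in cohesion, moved most among these 7 genes with 13.5, 12.3 and 13.7 TPM in libraries labelled ISLR, against 9.79, 8.41 and 8.83 TPM in those labelled NC (log2 fold 0.50, adjusted p = 0.00331). RFC3, a small subunit of the main loader, had 81.9, 79.3 and 88.5 TPM in libraries labelled ISLR, against 86.5, 80.7 and 77.3 TPM in those labelled NC. Its values interleave (log2 fold 0.03, adjusted p = 0.712; after scaling -0.23, adjusted p = 0.0182). The other subunits, RFC1 (0.46), RFC4 (0.37), RFC2 (0.34) and RFC5 (0.28), were higher as deposited. Of the 7 genes, 6 were higher as deposited (38.5% of all tested genes). After scaling 3 were higher (PCNA, RFC1 and DSCC1) and 1 lower, against 17.2% and 21.3% of all tested genes.

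Lagging-strand joining and single-strand cover gave 1 clear gene each. FEN1, the flap endonuclease that trims Okazaki fragments, stood at 106, 106 and 109 TPM in libraries labelled ISLR, against 70.0, 72.7 and 71.8 TPM in those labelled NC (log2 fold 0.57, 95% interval 0.49 to 0.66, limma adjusted p = 9.86e-05). LIG1, the ligase that seals them, had 29.7, 33.6 and 32.0 TPM in libraries labelled ISLR, against 26.8, 30.4 and 27.5 TPM in those labelled NC, with overlap (log2 fold 0.16, adjusted p = 0.101). RPA2 of the single-strand binding complex stood at 143, 144 and 142 TPM in libraries labelled ISLR, against 110.2, 108 and 113 TPM in those labelled NC (log2 fold 0.37, adjusted p = 0.000296). RPA2 passed after scaling too (adjusted p = 0.0363). RPA3 of the same complex had 46.7, 40.2 and 33.8 TPM in libraries labelled ISLR, against 37.6, 41.3 and 40.2 TPM in those labelled NC, with the libraries labelled ISLR spread around those labelled NC (adjusted p = 0.964). RPA1, the large subunit, passed as deposited (log2 fold 0.20, adjusted p = 0.0201) but not after scaling (0.462), nor without labelled ISLR 1 or 3 or labelled NC 1 (0.062, 0.0686 and 0.0601). FEN1 shares 166 exon bases with TMEM258 on the opposite strand, which reached 256 TPM.

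The 3 fork protection genes were all higher. CLSPN, the adaptor that passes the signal of a stalled fork to the checkpoint kinase, had 14.0, 14.2 and 12.3 TPM in libraries labelled ISLR, against 7.59, 8.56 and 9.63 TPM in those labelled NC (log2 fold 0.59, 95% interval 0.35 to 0.84, limma adjusted p = 0.00363). TIPIN, which keeps stalled forks stable, had 28.4, 28.2 and 28.9 TPM in libraries labelled ISLR, against 23.0, 19.2 and 20.2 TPM in those labelled NC (log2 fold 0.44, adjusted p = 0.00336). Its partner TIMELESS had 23.0, 22.9 and 23.1 TPM in libraries labelled ISLR, against 17.2, 17.7 and 18.0 TPM in those labelled NC (log2 fold 0.37, adjusted p = 0.0019). The libraries labelled ISLR were closely grouped for both partners, and of the 3 genes CLSPN passed after scaling (adjusted p = 0.0366).

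DTL had the largest fold of the 52 genes. It is the substrate receptor of a ubiquitin ligase that removes CDT1 in S phase, and lies on chromosome 1 at 212035553 to 212107400 (GENCODE 29, GRCh38, plus strand). It stood at 66.1, 67.8 and 73.0 TPM in libraries labelled ISLR, against 36.8, 32.3 and 34.2 TPM in those labelled NC (log2 fold 0.98, 95% interval 0.83 to 1.13, relative 0.77, limma adjusted p = 0.000107). UHRF1, which carries DNA methylation onto the new strand, stood at 46.3, 48.1 and 48.0 TPM in libraries labelled ISLR, against 32.6, 32.9 and 34.2 TPM in those labelled NC (log2 fold 0.50, adjusted p = 0.000363). Both were higher on both scales, with no overlap.

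The genes of deoxynucleotide supply in this set did not pass as deposited. RRM2, the regulated subunit of ribonucleotide reductase, had 174, 207 and 195 TPM in libraries labelled ISLR, against 195, 196 and 182 TPM in those labelled NC, with overlap (log2 fold 0.01, 95% interval -0.15 to 0.16, limma adjusted p = 0.957). RRM1, the catalytic subunit, had 76.3, 80.7 and 81.2 TPM in libraries labelled ISLR, against 78.1, 70.9 and 69.1 TPM in those labelled NC (adjusted p = 0.105, and 0.0296 without labelled NC 1). TYMS, thymidylate synthase, had 50.6, 51.2 and 54.1 TPM in libraries labelled ISLR, against 51.0, 44.4 and 46.6 TPM in those labelled NC (adjusted p = 0.116, and 0.0395 without labelled NC 1). All 3 lay below the typical gene, with relative log2 folds of -0.21, -0.09 and -0.08, and RRM2 was lower after scaling (adjusted p = 0.0156). TYMS shares exon bases with ENOSF1 and TYMSOS on the opposite strand, of at most 7.91 and 18.9 TPM. RRM2 over RRM1 was 2.28, 2.57 and 2.40 in the libraries labelled ISLR, against 2.50, 2.77 and 2.63 in those labelled NC, which overlap.

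All 4 genes of histone supply and assembly onto new DNA were higher as deposited (38.5% of all tested genes). ASF1B, a chaperone of new histones H3 and H4, had the second largest fold of the 52 genes, at 35.1, 36.2 and 36.2 TPM in libraries labelled ISLR, against 16.4, 19.8 and 17.6 TPM in those labelled NC (log2 fold 0.96, 95% interval 0.79 to 1.14, limma adjusted p = 0.000195). CHAF1A and CHAF1B, subunits of the chromatin assembly factor that PCNA recruits, followed (log2 fold 0.62 and 0.51). SLBP, which binds the stem-loop of replication-dependent histone mRNAs, was the most abundant and moved least, at 98.6, 103 and 101 TPM in libraries labelled ISLR, against 89.8, 74.7 and 79.4 TPM in those labelled NC (log2 fold 0.31, adjusted p = 0.00861). The 3 assembly genes passed after scaling and SLBP did not (adjusted p = 0.568). Of 5 further genes of chromatin assembly, 3 were higher as deposited. After scaling 2 of these 5 were higher and 2 lower, against 17.2% and 21.3% of all tested genes.

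Of the repair genes that act with replication, MSH6 and UNG were higher on both scales. MSH6, which recognises mismatches in new DNA, had 44.7, 38.6 and 45.4 TPM in libraries labelled ISLR, against 24.8, 22.7 and 23.0 TPM in those labelled NC (log2 fold 0.84, 95% interval 0.66 to 1.02, limma adjusted p = 0.000343). UNG, which removes uracil from DNA, had a log2 fold of 0.48 (adjusted p = 0.000539). EXO1, an exonuclease of mismatch repair and the most abundant of the 3, had 94.6, 92.6 and 92.9 TPM in libraries labelled ISLR, against 82.4, 74.8 and 83.6 TPM in those labelled NC, a fold close to the median of all genes (log2 fold 0.22, adjusted p = 0.0111 as deposited and 0.513 after scaling). MSH6 shares 1785 exon bases with FBXO11 on the opposite strand, of at most 16.4 TPM. Of the 52 genes, 18 share exon bases with a gene on the opposite strand and 8 with a gene on the same strand, where counting by strand would not separate the reads. The sources used here do not state whether reads were counted by strand.

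**Figure D3:**
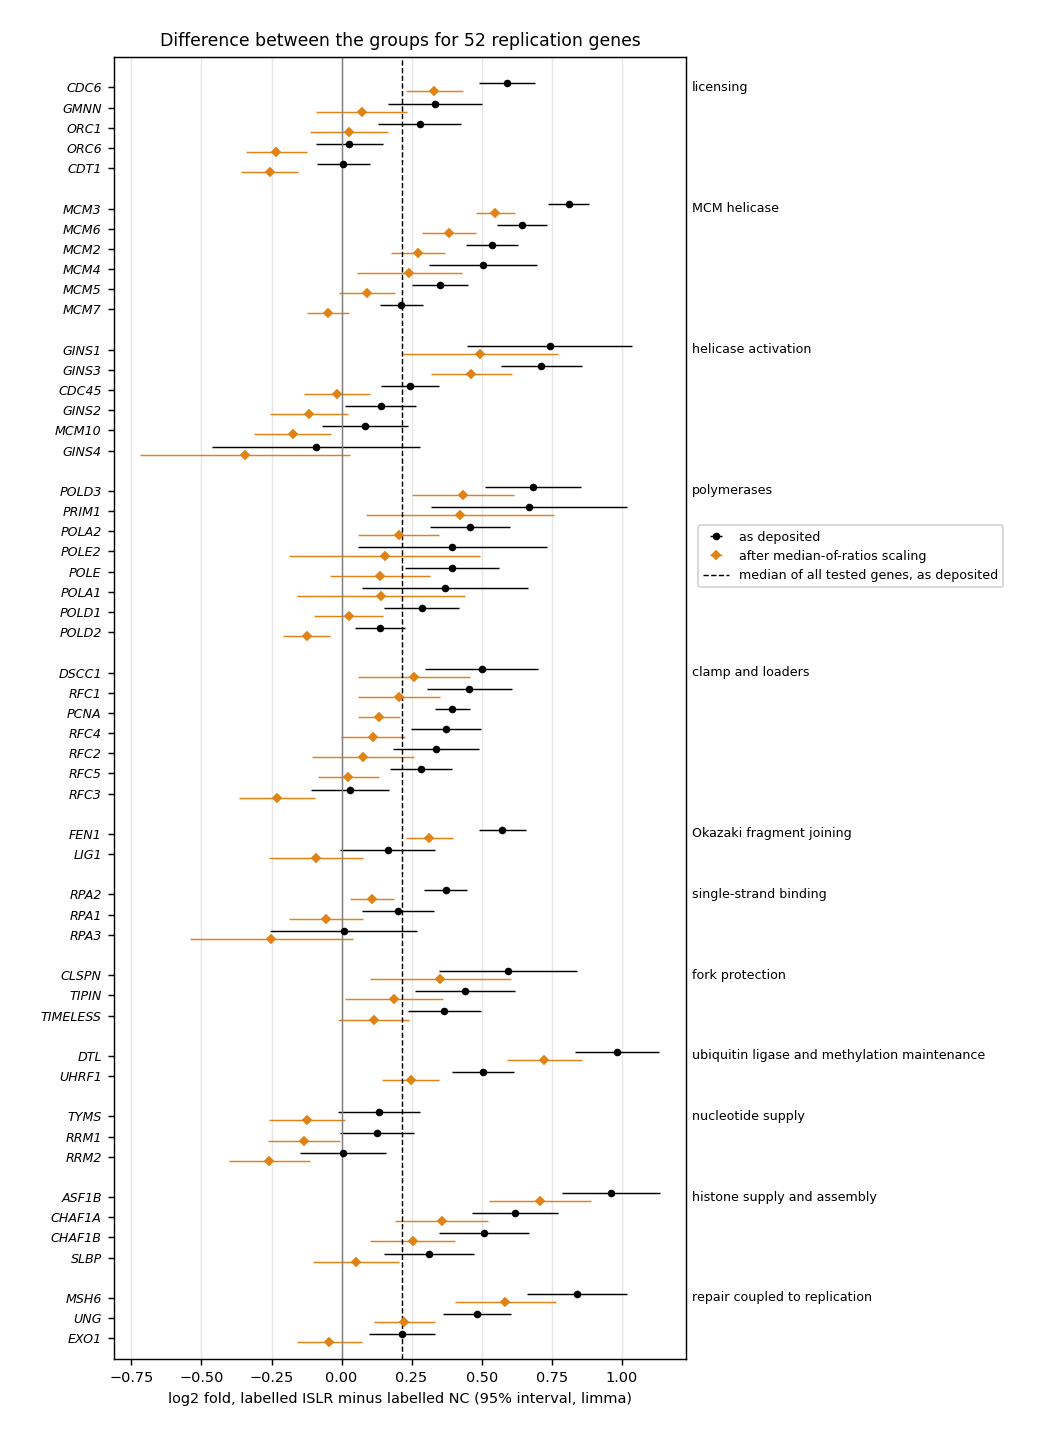
Log2 fold, labelled ISLR minus labelled NC, of each of the 52 genes with its 95% interval from limma, by role (black circles, as deposited; orange diamonds, after median-of-ratios scaling; dashed line, median of all tested genes as deposited at 0.22). DTL (0.98), ASF1B (0.96), MSH6 (0.84) and MCM3 (0.81) lie farthest right, and ORC6, CDT1, RFC3 and RRM2 lie near 0 as deposited and below it after scaling.

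Set side by side, the role groups spanned median relative log2 folds of -0.09 to 0.53. The median relative log2 fold was 0.30 for the 6 genes of the MCM ring, 0.35 for the 4 of histone supply and assembly, and 0.53 for DTL and UHRF1. It was 0.18 for the 8 polymerase genes and 0.16 for the 7 of clamp and loaders. It was 0.06 for the 5 licensing genes, -0.02 for the 6 of helicase activation and -0.09 for the 3 of nucleotide supply. Over the 52 genes it was 0.15, and 38 of them lay above the typical gene, against 50% of all tested genes by construction of the median. The groups hold few genes and were not tested against each other.

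Other genes of the same processes had a median fold close to that of the 52 genes. Of 43 further replication genes, 42 were tested. As deposited, 27 were higher and 2 lower, against 38.5% and 7.38% of all tested genes. After scaling, 12 were higher and 6 lower, against 17.2% and 21.3%. Their median log2 fold was 0.36, against 0.37 for the 52 genes, and after scaling it was 0.12 for both. TK1, thymidine kinase, averaged 132 ± 7.46 TPM with the ISLR label and 90.7 ± 1.76 TPM with the NC label (mean ± SD, n = 3 each, limma adjusted p = 0.000329). RECQL4, a helicase needed for origin firing, averaged 52.1 ± 4.70 TPM with the ISLR label and 30.9 ± 0.462 TPM with the NC label, and CDC7, the kinase that fires origins, 23.8 ± 0.915 TPM with the ISLR label and 14.1 ± 0.921 TPM with the NC label. RBBP4, which shares the assembly factor with CHAF1A, averaged 261 ± 5.90 TPM with the ISLR label and 196 ± 8.35 TPM with the NC label. These 4 had the smallest p among the higher genes of this list.

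The 2 lower genes were RNASEH2C and ORC4. RNASEH2C, a subunit of the nuclease that removes ribonucleotides from DNA, had 73.7, 81.1 and 74.4 TPM in libraries labelled ISLR, against 86.1, 96.7 and 88.8 TPM in those labelled NC (adjusted p = 0.0141). ORC4, of the origin recognition complex, had 16.5, 17.3 and 20.9 TPM in libraries labelled ISLR, against 22.8, 23.3 and 20.9 TPM in those labelled NC, with overlap (adjusted p = 0.0488). The count of 2 rests on a narrow margin. Without a filter on low values the count was 1, as it was with limma without its trend and robust options, and without any single library, and 0 at an adjusted p under 0.01. The 4 further polymerase and primase subunits, PRIM2, POLD4, POLE3 and POLE4, did not pass as deposited, with relative log2 folds of -0.32 to -0.08, and 2 of them (POLE3 and POLE4) were lower after scaling.

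Across all tested genes the median fold differed with level and with length, so replication genes were set beside genes in the same of 5 classes by level or length. Among the tested genes with the highest mean TPM (class 5 of 5, 39.1 to 19410 TPM), the median log2 fold of all genes was 0.05. That of the 32 replication genes in it was 0.32. No value of the 52 genes exceeded 356 TPM, so this class reaches far above them and is not closely matched in level. In class 4 (up to 39.1 TPM) it was 0.23 for all genes and 0.46 for the 16 replication genes. In the shortest of 5 length classes (up to 1762 nt) it was 0.02 for all genes and 0.37 for the 9 replication genes. The distance was smaller in class 2 (0.16 for all and 0.25 for the 13 replication genes) and class 4 (0.29 for all and 0.41 for the 12). It was 0.24 for all and 0.46 for the 15 replication genes in class 3, and 0.30 for all and 0.59 for the 3 in the longest class (at least 5665 nt). With the trend with mean expression removed after scaling, 29 of the 52 genes were higher and 0 lower, against 17.2% and 15.8% of all tested genes. With the trend with length removed after scaling, 21 were higher and 4 lower, against 16.4% and 20.4%.

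**Figure D4:**
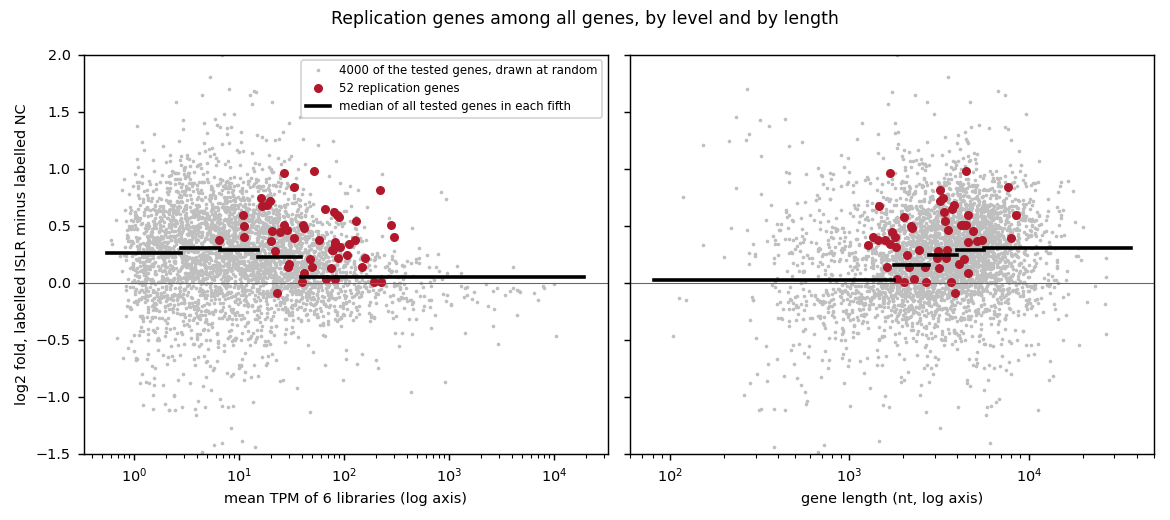
Log2 fold (labelled ISLR minus labelled NC, y axis) against mean TPM of the 6 libraries (left) and gene length in nt (right), both on log axes, for the 52 replication genes (red) and 4000 of the 13869 tested genes drawn at random (grey, of which 16 lie outside the y range). Black lines mark the median of all tested genes in each of 5 equal classes. It is 0.05 in the class of highest level (39.1 to 19410 TPM), where 32 replication genes have a median of 0.32.

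The authors' deposited table gives an adjusted p for each gene and no direction of its own. In the authors' deposited table, 34 of the 52 genes (65.4%) had an adjusted p under 0.05, as did 51.2% of the tested genes. The smallest values there were those of MCM3 (8.23e-44), CHAF1A (7.74e-39) and DTL (6.01e-33). RRM2 (1.23e-21) and CDT1 (2.51e-14) also had very small values in the authors' deposited table, although their mean TPM differed by less than the SD within a group. Both were lower by limma after median-of-ratios scaling, as were ORC6, RFC3 and POLD2. The authors' adjusted p of these was 4.31e-11, 9.79e-08 and 1.11e-06. The 34 genes are therefore not a count of higher genes, and the cause of these small values was not tested. PCNA (0.114), RPA2 (0.386) and RFC4 (0.85) did not pass in the authors' deposited table, although the TPM of the groups did not overlap. That table marks none of the 52 genes as significant by a rule that the sources used here do not state.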

How the data were processed

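Messenger RNA of 3 libraries labelled ISLR and 3 labelled NC was compared, with groups taken from the sample labels and columns matched by sample title. TPM per gene and library was deposited by the authors, who also deposited raw and adjusted p-values. DESeq2 appears in the name of that table, and the sources used here do not state its settings. Per the submitters' processing notes, the build was GRCh38.p10 and the tools were HISAT2, RSEM and Cufflinks, with no role or version.

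From these values, genes that reached 1 TPM in 3 or more libraries (13869 of 58884, with 1 blank row left out) were transformed to log2(TPM + 1) and fitted with limma 3.58.1 in R 4.3.3. Group was the only term, the trend and robust options were on, tests were two-sided, and a Benjamini-Hochberg adjusted p under 0.05 over all tested genes was the threshold. A log2 fold with a pseudocount of 1 understates changes of low genes. TPM keeps no depth, so counting error cannot be given, and no count model was run. The fit was tested on simulated data. Median-of-ratios scaling of TPM between libraries, other pseudocounts, filters and normalizations, removal of trends with length or expression (lowess, span 0.3), a replicate block, and omission of each library were tried as alternatives.

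The 52 genes and the other lists were chosen with earlier results of these data known. Within each role list, values in every library are given for the genes of largest fold, smallest fold and highest mean TPM, and for those not called or called in opposite directions on the 2 scales; values of POLA1, PRIM1, FEN1 and others beyond that rule were chosen after being seen. Positions and exon overlaps came from GENCODE 29 (GRCh38), and promoter windows from RefSeq (GRCh38.p14), where 7 of the 52 genes were not matched. Python 3.11.15 with matplotlib 3.10.9 drew the figures. Values of some further genes on the lists are not reported here.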

Additional observations from a re-analysis of the deposited data

How the results depend on the processing

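The scaling between libraries mattered most. Of the 52 genes, 40 were higher and 0 lower as deposited, and 22 higher and 5 lower after median-of-ratios scaling. With the trend with length also removed, 21 were higher and 4 lower. Under the other alternatives no count of higher genes moved by over 1.5 times. Among these was the authors' deposited adjusted p, with 34 higher and 0 lower, where directions came from unscaled mean TPM. It counted ORC6, CDT1, RFC3, RRM2 and POLD2 as higher, although limma called them lower after scaling. The median log2 fold of the 52 genes was 0.12 with scaling, 0.23 with quantile normalization, 0.18 and 0.22 with the length or expression trend removed, 0.39 and 0.34 at pseudocounts of 0.1 and 5, and 0.39 as a log2 ratio of mean TPM. Leaving out 1 library gave medians of 0.37 to 0.40, with 37 to 41 genes higher and 0 lower. The same 37 genes were higher in all 6 omissions and with all libraries, and 16 were higher under every fit of these libraries at the 0.05 threshold.

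Of the other replication genes, 27 were higher as deposited, 12 with scaling, 14 with quantile normalization, 9 with the length trend removed and 14 with the expression trend removed. The 2 lower ones became 6 with scaling, 5 with the length trend removed, 1 with no filter, 1 with limma without trend and robust, 0 at an adjusted p under 0.01 and 1 without any single library. Over all tested genes, 5346 were higher and 1024 lower as deposited. These counts were 2380 and 2958 with scaling, 2454 and 2111 with quantile normalization, 3342 and 541 at an adjusted p under 0.01, 2275 and 2828 with the length trend removed, and 2384 and 2189 with the expression trend removed. By the authors' deposited adjusted p, with directions from mean TPM, 2540 were lower.

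The sign of a log2 fold turned for these genes with scaling: ORC6 -0.23, CDT1 -0.26, MCM7 -0.048, MCM10 -0.17, CDC45 -0.016, GINS2 -0.12, POLD2 -0.12, RFC3 -0.23, LIG1 -0.091, RPA1 -0.056, RPA3 -0.25, RRM1 -0.13, RRM2 -0.26, TYMS -0.12 and EXO1 -0.044. With quantile normalization it turned for ORC6 -0.071, MCM10 -0.077, GINS2 -0.053, RFC3 -0.071, LIG1 -0.035, RPA3 -0.16, RRM2 -0.017 and TYMS -0.021. With the expression trend removed it turned for ORC6 -0.090, MCM10 -0.082, GINS2 -0.065, RFC3 -0.070, LIG1 -0.038, RPA3 -0.16, RRM2 -0.014 and TYMS -0.014, and with the length trend removed for ORC6 -0.14, CDT1 -0.24, MCM7 -0.058, MCM10 -0.24, GINS2 -0.094, POLD1 -0.0038, POLD2 -0.062, RFC3 -0.18, LIG1 -0.14, RPA1 -0.11, RPA3 -0.17, RRM1 -0.15, RRM2 -0.29, TYMS -0.0073 and EXO1 -0.070. Leaving out 1 library turned the sign of 6 genes, none of them called, over ranges of ORC6 -0.0076 to 0.066, CDT1 -0.019 to 0.039, GINS4 -0.19 to 0.10, RFC3 -0.015 to 0.073, RPA3 -0.10 to 0.12 and RRM2 -0.051 to 0.073. Beyond the construction of each setting, the cause was not tested.

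The replicate numbers gave no pairing: deviations of same-numbered libraries correlated at 0.0201, 0.0468 and -0.0556. With a replicate block 39 of the 52 genes were higher and 0 lower, and 1 of the other replication genes was lower. POLA1 was the gene that lost its call (limma adjusted p = 0.0827). Depth is unknown, so what it limits cannot be stated.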

Other observations

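CHTF8, part of the alternative clamp loader that holds DSCC1, was chosen after its values were seen. It had 30.2, 24.5 and 26.1 TPM in the libraries labelled ISLR, against 10.2, 10.6 and 15.2 TPM in those labelled NC, and its log2 fold of 1.12 (limma adjusted p = 0.00133) was above that of each of the 52 genes.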
